A study of Danio rerio with 14 samples.

Results

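Splicing factor genes were followed in the eyes of zebrafish larvae that had been kept from fertilization to 5 days post fertilization (dpf) in water with 350 mg/L propylthiouracil (PTU), a drug that blocks thyroid hormone synthesis. Probes were taken whose gene symbol, on the array platform or in the current annotation, starts with srsf (formerly sfrs), snrp, sf3a, sf3b, hnrnp, u2af, prpf, lsm and a digit, ddx39, tra2, srrm, sart, snw1, magoh or rbm8. The rule used names and no measured value. It found 182 of the 16913 probes, for 89 of the 8445 genes. The zebrafish annotation lists 106 genes under these names, and the 17 others were not analysed here.

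The 4 groups were control eyes at 5 dpf, PTU eyes at 5 dpf, control eyes at 8 dpf, and eyes at 8 dpf of larvae that had spent the last 3 days in clean water after the same 5 days in PTU. All larvae were of the wild-type AB strain, and controls differed only in the absence of PTU. Each group had 3 RNA extracts, each pooled from the dissected eyes of 10 larvae, and the study ran these as biological replicates. The 12 extracts were compared in pairs on 14 arrays with 2 dyes, so each value below is a log2 ratio between extracts or a log2 level relative to the mean of the 3 control extracts at 5 dpf, and no level of one gene can be set against that of another.

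A spliceosome is built anew on every intron of a messenger RNA precursor. Small nuclear ribonucleoproteins (snRNPs), each a small nuclear RNA with a ring of Sm or LSm proteins and some proteins of its own, recognise the splice sites, and the U4, U5 and U6 particles join as a tri-snRNP before the reaction. SR proteins and hnRNPs bind the exons and introns around the sites and decide, often against each other, which exons are kept. In people, mutations in several tri-snRNP genes cause retinitis pigmentosa, a degeneration of photoreceptors, although every cell uses these proteins.

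Many splicing factors were higher in PTU eyes than in control eyes at both ages, relative to the other RNA on the arrays. At 5 dpf, 38 of the 89 genes rose, 6 fell and 45 did not pass the test (limma, adjusted p under 0.05 over all genes). Over all genes tested, 24.2 percent were higher and 22.8 percent lower, whereas of the splicing factors 42.7 percent were higher and 6.74 percent lower. The median log2 fold change of the 89 genes was 0.16, beside a median of -0.0014 over all genes. At 8 dpf, 34 rose, 2 fell and 53 did not pass, with 19.6 percent of all genes higher and 13.2 percent lower, and the median of the 89 was 0.18. The changes were small for single genes. The largest at either age was that of sf3b4 at 5 dpf, 1.97-fold by a single probe, and a standard error of 0.0835 at 5 dpf and 0.0924 at 8 dpf was typical. In eyes taken whole, and with ratios normalized on each array, more cells with a given RNA, more of it per cell and less of other RNA cannot be told apart.

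The 3 extracts of PTU eyes lay outside the range of the 3 control extracts for 53 of the 89 genes at 5 dpf (59.6 percent, with 52 percent of all genes), 45 of them above. At 8 dpf this held for 41 genes (46.1 percent, with 35.3 percent of all genes), 36 of them above. Of the 38 genes that rose at 5 dpf, 24 also rose at 8 dpf, and 10 rose at 8 dpf only by this test. One gene, sf3b1, fell at both ages, no gene passed the test in opposite directions at the 2 ages, and 34 passed at neither age. Across the 89 genes the effects at the 2 ages correlated with a Pearson r of 0.66 and a Spearman rho of 0.648. The 2 effects compare different extracts, but both come from 1 fit in which 4 arrays link the ages. They are therefore not separate estimates. The 89 genes share the arrays' normalization and are not independent, and over all genes r was 0.665.

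Depth of evidence differed between genes. Leaving out each extract in turn, 24 of the 38 genes that rose at 5 dpf kept their call every time and 14 lost it without at least 1 extract. At 8 dpf 19 of 34 kept it. The 6 genes that fell at 5 dpf all lost their call without PTU 5 dpf replicate 1, without which no splicing factor passed as lower, whereas the 2 that fell at 8 dpf (sf3b1 and srsf11) kept it. Without that extract 15.6 percent of all genes passed as lower at 5 dpf. Control and PTU 5 dpf replicate 1 were each on 4 of the 14 arrays, so leaving either out removes more data than leaving out one of the other 10. The lowest counts were 27 genes higher at 5 dpf, without control 5 dpf replicate 1, and 22 higher at 8 dpf, without control 8 dpf replicate 3. The shares of all genes that were higher also went down in these settings, to 16 percent at 5 dpf and 13 percent at 8 dpf. The array of control 8 dpf replicate 2 with PTU 8 dpf replicate 1 had the largest residual spread (0.346, beside 0.171 to 0.283 on the others). Without it all 38 and 34 rises and all 6 and 2 falls were kept. The counts without this array were 46 higher and 9 lower at 5 dpf (with 28.2 and 27.2 percent of all genes) and 39 higher and 7 lower at 8 dpf (with 22.1 and 16.3 percent of all genes). The genes it added were lsm4, lsm7, lsm8, prpf18, prpf31, snrpa, snrpb, snrpd3l, srrm1, tra2a and u2af2b at 5 dpf and hnrnpa1a, hnrnpd, hnrnph1l, hnrnpl2, lsm14aa, rbm8a, sart3, srrm1, srrm2 and u2af1 at 8 dpf, each with the sign it had before.

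**Figure D1:**
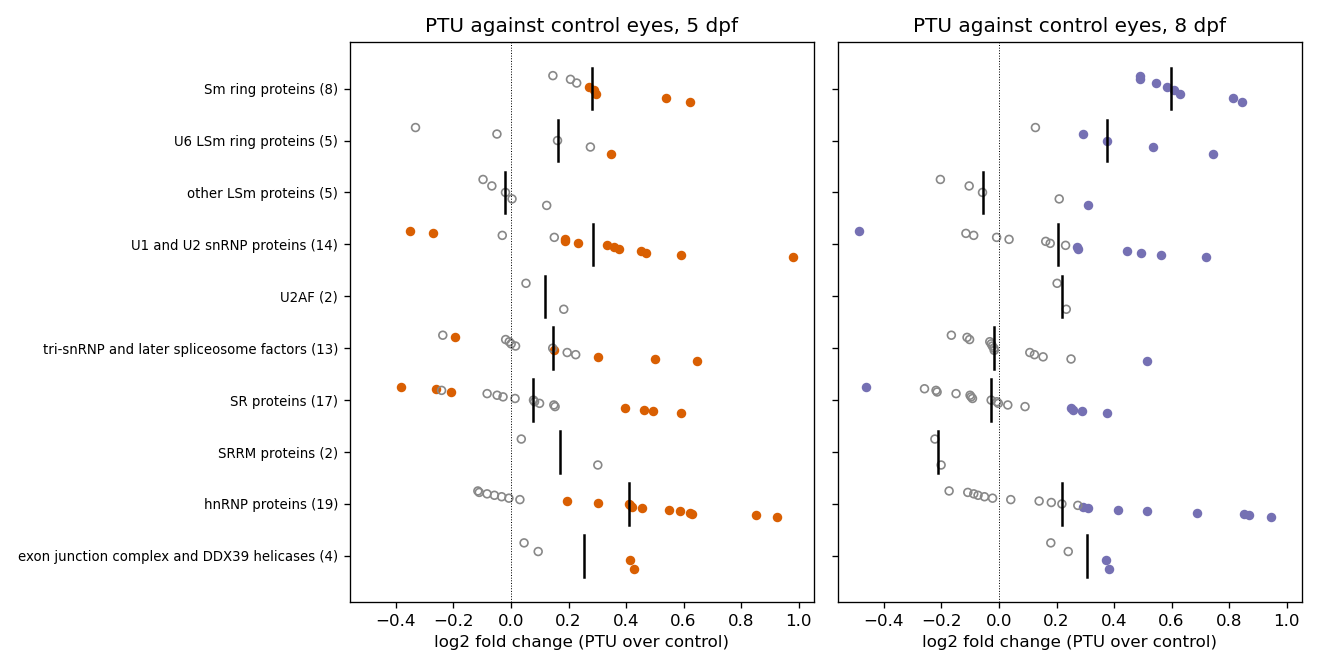
Log2 fold change of each of the 89 splicing factor genes, PTU over control eyes, at 5 dpf (left) and 8 dpf (right), by role with the number of genes in brackets. Filled points passed the test (adjusted p under 0.05), open points did not, and the black bar is the median of the role: all 8 Sm ring genes lie right of 0 at both ages, while SR protein genes lie on both sides.

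The Sm ring, the ring of common core proteins around the U1, U2, U4 and U5 RNAs, moved as a group. All 8 measured genes had a positive fold change at both ages. At 5 dpf 5 of the 8 passed (snrpd1, snrpd2, snrpd3, snrpf and snrpg), with a median over the 8 of 0.28. At 8 dpf all 8 passed, with a median of 0.60. These rises were 62.5 and 100 percent, with 24.2 and 19.6 percent of all genes. The counts fell to 2 at 5 dpf without control replicate 2, PTU replicate 1 or PTU replicate 2 of that age, and to 5 at 8 dpf without control 8 dpf replicate 3.

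snrpf, which encodes SmF, stood at -0.13, -0.03 and 0.16 in the control extracts and at 0.58, 0.63 and 0.37 in the PTU extracts at 5 dpf. At 8 dpf the control extracts were at -0.51, -0.30 and -0.65 and the PTU extracts at 0.28, 0.26 and 0.51. The groups did not overlap at either age, and the PTU extracts of 8 dpf lay above every control extract of either age. The log2 fold change was 0.54 ± 0.09 (SE, adjusted p = 0.000159) at 5 dpf, and at 8 dpf it was 0.85 ± 0.10 (adjusted p = 1.25e-05), a 1.45-fold and a 1.8-fold difference.

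snrpg encodes another ring protein, SmG. Its control extracts were at -0.06, -0.15 and 0.21 at 5 dpf and at -0.60, -0.39 and -0.81 at 8 dpf, and its PTU extracts at 0.64, 0.74 and 0.48 and at 0.07, 0.13 and 0.42. At 8 dpf the control extracts were the lowest of the 12 and the PTU extracts overlapped the controls of 5 dpf. PTU eyes exceeded controls by 0.62 ± 0.10 (adjusted p = 0.000138) at the younger age and 0.81 ± 0.11 (adjusted p = 5.87e-05) at the older. For snrpd1, snrpd3 and snrpb, which encode SmD1, SmD3 and SmB, the fold changes at 8 dpf were 0.58, 0.63 and 0.61, again with no overlap of the extracts, and those at 5 dpf were 0.29, 0.27 and 0.23. The rises of snrpd1 and snrpd3 at 5 dpf were each lost without any of 4 extracts (adjusted p up to 0.192 and 0.149, without PTU 5 dpf replicate 1), and snrpb did not pass there (adjusted p = 0.0712).

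snrpd2, snrpd3l and snrpe were less firm. snrpd3l, a second gene for an SmD3 protein, had a fold change of 0.49 at 8 dpf, which was 0.30 with an adjusted p of 0.0743 without control 8 dpf replicate 3. snrpd2 had 0.30 at 5 dpf, lost without any of 6 extracts (adjusted p up to 0.159, without control 5 dpf replicate 1), and 0.49 at 8 dpf, lost without control 8 dpf replicate 3 (0.32, adjusted p = 0.0789). snrpe had 0.55 at 8 dpf with overlapping extracts, and its call was lost without any of 6 extracts (adjusted p up to 0.335, without control 8 dpf replicate 3).

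The same genes were followed with age. From 5 to 8 dpf all 8 Sm genes had a negative fold change in control eyes, with a median of -0.37. Of these 3 passed (snrpd3 -0.39, snrpf -0.41 and snrpg -0.53), or 37.5 percent, with 7.05 percent of all genes lower. In PTU eyes the median of the 8 was -0.06 and none passed. In each extract the median level of the 8 genes was between -0.121 and 0.135 in control eyes and between 0.16 and 0.321 in PTU eyes at 5 dpf, and between -0.567 and -0.209 and between 0.0802 and 0.373 at 8 dpf. The control extracts of 8 dpf thus lay below all the others. The 2 comparisons with age share extracts with the PTU effects and are given beside them for that reason. The fall in control eyes was not firm: snrpf, snrpg and snrpd3 lost it without any of 10, 6 and 8 extracts, with adjusted p up to 0.56, 0.257 and 0.427, without PTU, control and PTU 5 dpf replicate 1 respectively. None of the 8 differences between the PTU effects at the 2 ages passed the test, although all 8 were positive (0.19 to 0.40). Without the array of large residual spread 4 of them passed (snrpb 0.42, snrpd1 0.37, snrpd3 0.42 and snrpe 0.59).

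**Figure D2:**
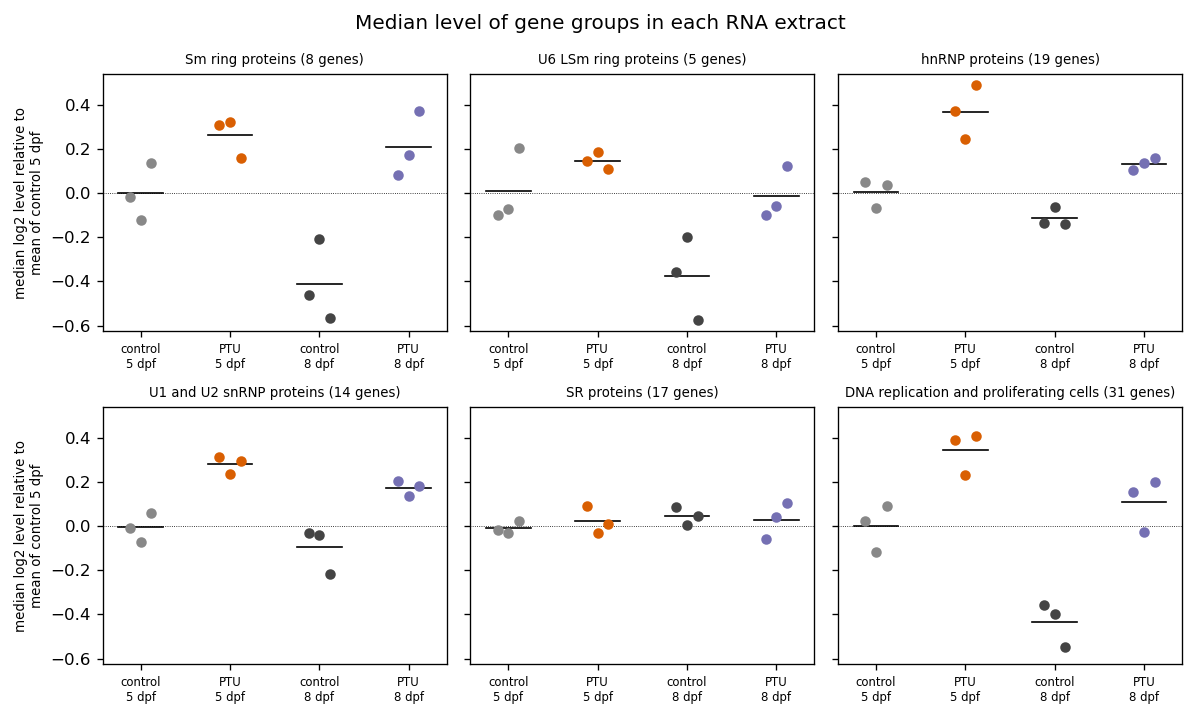
Median log2 level of 5 groups of splicing factor genes and of the list of replication genes in each of the 12 RNA extracts, relative to the mean of the control extracts of 5 dpf; each point is an extract and each bar the mean of 3. The Sm and replication panels have the control extracts of 8 dpf lowest, between -0.567 and -0.209 and between -0.548 and -0.359, and the SR panel has all extracts between -0.0586 and 0.104.

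The LSm ring that holds U6 RNA was less uniform. 1 of its 5 measured genes rose at 5 dpf (lsm6, 0.35) and 4 rose at 8 dpf, and the medians were 0.16 and 0.37. The rises were 20 and 80 percent, with 24.2 and 19.6 percent of all genes. lsm4 was at -0.08, -0.76 and -0.57 in control extracts and at 0.47, -0.07 and 0.33 in PTU extracts of 8 dpf. Every PTU extract was above every control extract, PTU replicate 2 by the least. Its fold change was 0.75 ± 0.18 (adjusted p = 0.0047), which was 0.53 without the array of large residual spread, and 0.28 (adjusted p = 0.17) at 5 dpf. lsm5, lsm6 and lsm8 had 0.37, 0.54 and 0.29 at 8 dpf and lost the call without control 8 dpf replicate 3 (adjusted p = 0.22, 0.114 and 0.154), which left 1 of the 5. Their calls were further lost without PTU 8 dpf replicates 2 or 3 for lsm5, replicate 3 for lsm6, and PTU 8 dpf replicate 2 or control 5 dpf replicate 1 for lsm8. The single rise at 5 dpf, that of lsm6, was lost without any of 5 extracts (adjusted p up to 0.263, without control 5 dpf replicate 1). lsm7 was at -0.33 at 5 dpf (adjusted p = 0.0638) and 0.13 at 8 dpf.

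Outside these rings, lsm12a had a fold change of -0.02 at 5 dpf and 0.31 ± 0.05 (adjusted p = 0.000535) at 8 dpf, where its PTU extracts were at 0.10, 0.23 and 0.16 and its control extracts at -0.18, -0.18 and -0.10. Its paralog lsm12b was at -0.07 and -0.06, and neither passed. lsm1 (0.12 and 0.21), of the cytoplasmic LSm ring that acts in mRNA decay, and lsm14aa (0.00 and -0.10) and lsm14ab (-0.10 and -0.20), whose human relative is a P-body protein, did not pass at either age.

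Proteins particular to the U1 and U2 snRNPs formed the most often changed role at 5 dpf. Of the 14, 10 rose and 2 fell at that age, with 6 rises and 1 fall at 8 dpf. The rises were 71.4 and 42.9 percent, with 24.2 and 19.6 percent of all genes. The falls were 14.3 and 7.14 percent, with 22.8 and 13.2 percent of all genes. The counts of rises were 7 and 3 at their lowest over the left-out extracts, the latter without control 8 dpf replicate 3. U1 snRNPs bind the 5′ splice site and U2 snRNPs the branch point, the latter through the SF3A and SF3B complexes.

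sf3b4 encodes an RNA-binding subunit of SF3B, and in people its loss of function causes Nager syndrome, a disorder of facial and limb development. Its control extracts at 5 dpf were at 0.09, -0.12 and 0.03 and its PTU extracts at 1.05, 0.86 and 1.04. At 8 dpf control extracts were at -0.34, -0.08 and -0.38 and PTU extracts at 0.68, 0.15 and 0.44. The extracts did not overlap, with PTU 8 dpf replicate 2 nearest to the controls. The log2 fold change was 0.98 ± 0.14 (adjusted p = 4.41e-05) and then 0.72 ± 0.16 (adjusted p = 0.00263), and the difference of -0.26 between the ages did not pass (adjusted p = 0.428).

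sf3b2, another SF3B subunit, was at 0.06, -0.04 and -0.01 in control and 0.59, 0.51 and 0.72 in PTU extracts at 5 dpf. At 8 dpf the values were -0.03, -0.10 and 0.13 against 0.26, 0.22 and 0.39. Both ages were free of overlap but the gap narrowed, from a fold change of 0.59 ± 0.06 (adjusted p = 1.67e-06) to 0.28 ± 0.07 (adjusted p = 0.00571). The difference of -0.31 had an adjusted p of 0.0252, and this call was lost without any of 8 extracts (adjusted p up to 0.126, without control 8 dpf replicate 3).

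Further genes of this role are named here after their values were seen. snrpc, of U1, had 0.47 and 0.56 at the 2 ages and snrpb2, of U2, 0.38 and 0.45, with adjusted p from 0.00288 to 0.00441. Leaving out control 8 dpf replicate 3 ended the rise of snrpb2 at the later age (0.37, adjusted p = 0.0612). sf3a1 and sf3b3 rose at 5 dpf (0.34 and 0.36) and were at 0.03 and 0.18 at 8 dpf, where neither passed. sf3b5 had 0.45 and 0.49, and lost the first call when PTU 5 dpf replicate 1 was left out (0.34, adjusted p = 0.0646) and the second when control 8 dpf replicate 3 was (0.45, adjusted p = 0.0536). sf3a2 (0.23) and prpf39 (0.19) rose at 5 dpf and lost the call without any of 6 and 4 extracts, with adjusted p up to 0.291 and 0.153 without PTU 5 dpf replicate 1. snrpa, of U1, rose at 8 dpf only by this test (0.27, lost without control 8 dpf replicate 3, where it was 0.23 with an adjusted p of 0.0633).

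snrpa1, of U2, was higher at 5 dpf (0.19, adjusted p = 0.0167, lost without any of 4 extracts, adjusted p up to 0.148 without control 5 dpf replicate 1) and was at -0.09 at 8 dpf. It was also higher with age in control eyes, by 0.38 (adjusted p = 0.00823), which was lost without control or PTU 5 dpf replicate 1 (adjusted p up to 0.232, without the former).

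Within the same complexes sf3b1 and sf3b6 went down. sf3b1 encodes the largest SF3B subunit, which holds the branch point. At 5 dpf its control extracts were at 0.04, 0.01 and -0.05 and its PTU extracts at -0.33, -0.28 and -0.24. At 8 dpf they were at 0.20, 0.37 and 0.63 and at -0.30, 0.24 and -0.06, so that PTU replicate 2 of 8 dpf lay within the control range. The fold change was -0.27 ± 0.08 (adjusted p = 0.0121) at 5 dpf, lost without any of 4 extracts (adjusted p up to 0.095, without PTU 5 dpf replicate 1), and -0.49 ± 0.09 (adjusted p = 0.000636) at 8 dpf. sf3b6, for a small subunit at the branch point, was at -0.35 at 5 dpf (adjusted p = 0.023), with PTU extracts at -0.30, -0.06 and -0.71 and controls at -0.10, -0.03 and 0.13. The ranges overlapped, and without PTU 5 dpf replicate 3 the fold change was -0.19 (adjusted p = 0.201). The call was also lost without control 5 dpf replicates 1 or 3 or PTU 5 dpf replicate 1. sf3b6 was at 0.16 at 8 dpf (adjusted p = 0.376).

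Both U2AF genes measured, u2af1 (0.05 and 0.20) and u2af2b (0.18 and 0.23), for the proteins that read the 3′ splice site ahead of U2, missed the threshold at both ages.

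**Figure D3:**
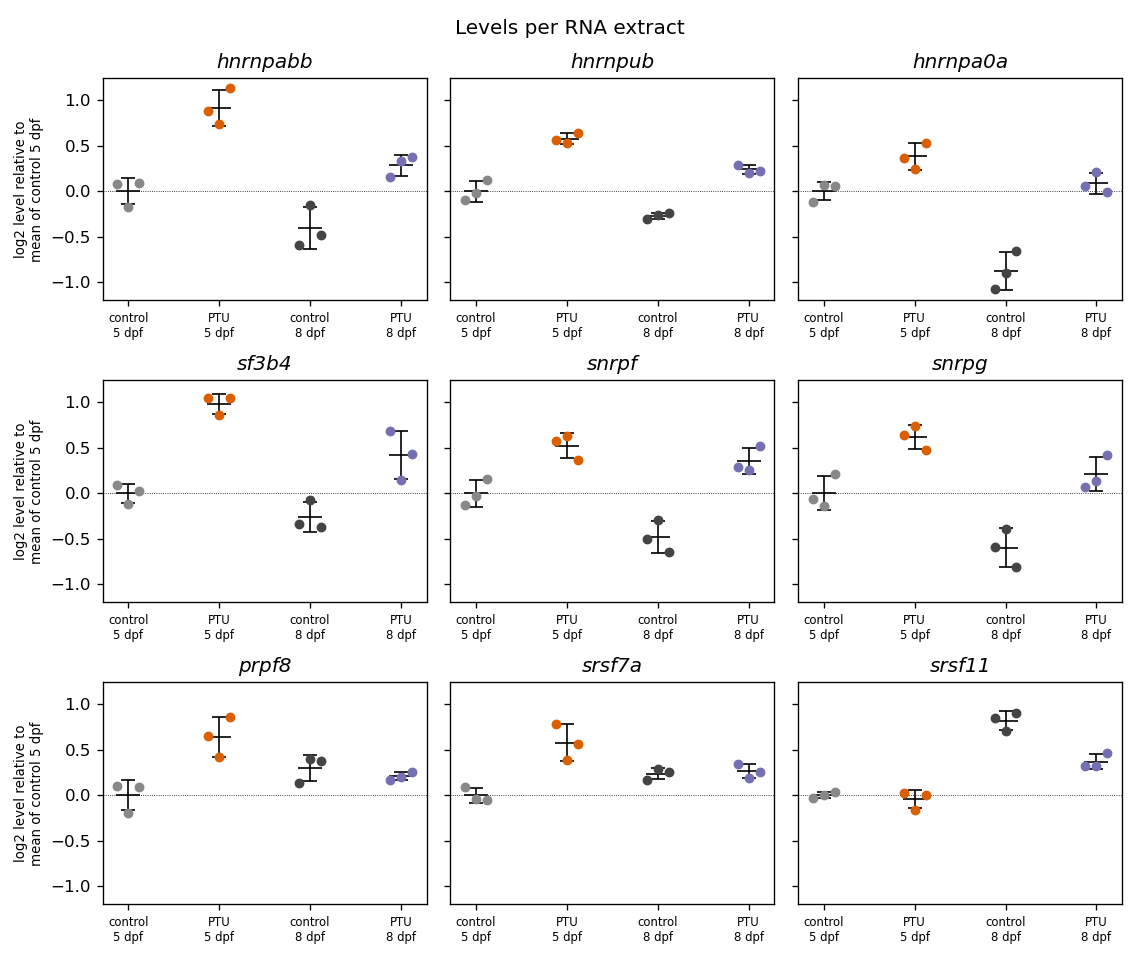
Log2 level of 9 genes in each RNA extract relative to the mean of the control extracts of 5 dpf. Points are extracts, bars the mean and SD of 3, and in the lower panels the PTU extracts of prpf8 (0.42 to 0.86) and srsf7a (0.38 to 0.79) stand above the controls at 5 dpf but not at 8 dpf, while the control extracts of srsf11 (0.71 to 0.91) are the highest at 8 dpf.

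Among the 13 tri-snRNP and later spliceosome factors, 4 rose and 1 fell at 5 dpf, and 1 rose at 8 dpf. The rises were 30.8 and 7.69 percent, with 24.2 and 19.6 percent of all genes. The fall at 5 dpf was 7.69 percent, with 22.8 percent of all genes. prpf8 encodes the large U5 protein at the catalytic centre and is one of the human retinitis pigmentosa genes. Its control extracts at 5 dpf were at 0.10, -0.19 and 0.09 and its PTU extracts at 0.66, 0.42 and 0.86. At 8 dpf the control extracts were at 0.13, 0.39 and 0.37 and the PTU extracts at 0.16, 0.20 and 0.26. The groups were apart at 5 dpf, and at 8 dpf the PTU extracts lay within the control range. The fold change was 0.65 ± 0.08 (adjusted p = 5.7e-06) at 5 dpf, and at 8 dpf it was -0.10 ± 0.08 (adjusted p = 0.387). The difference between the ages, -0.75 with an adjusted p of 0.000458, kept its call without any one extract (adjusted p at most 0.0107). The gene had a single probe.

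Among the other splicing factors here that are linked to retinitis pigmentosa in people, none passed the test for a difference between the ages. prpf3 was at 0.15 at both ages, with an adjusted p of 0.042 at 5 dpf that was lost without any of 9 extracts (up to 0.198, without PTU 5 dpf replicate 1), and of 0.077 at 8 dpf. prpf4 (0.15 and 0.12), prpf6 (0.23 and 0.25) and prpf31 (0.20 and -0.03), which hold the tri-snRNP together, passed at neither age. Without the array of large residual spread prpf31 passed at 5 dpf (0.195, adjusted p = 0.0174) but not at 8 dpf (0.04). prpf19, a ubiquitin ligase that joins for activation of the spliceosome, was higher at both ages by nearly the same amount, 0.50 ± 0.07 (adjusted p = 3.7e-05) and 0.52 ± 0.08 (adjusted p = 0.000138). Its extracts were at 0.12, -0.19 and 0.08 against 0.53, 0.32 and 0.65, and then at -0.29, -0.06 and -0.35 against 0.25, 0.26 and 0.31. No PTU extract of either age came down to the control range of that age.

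prpf38a and prpf38b, for proteins of the precatalytic spliceosome, differed in sign at 5 dpf (-0.19 and 0.30, adjusted p = 0.0179 and 0.0169), and both are named after their values were seen. The calls were lost without any of 4 extracts (adjusted p up to 0.15, without PTU 5 dpf replicate 1) and of 3 extracts (up to 0.08, without control 5 dpf replicate 2), and the tri-snRNP count was then as low as 2 higher and 0 lower. sart1 (0.00 and -0.03) and sart3 (-0.01 and -0.17), which bring the tri-snRNP to the spliceosome and recycle U4 and U6, and snw1 (-0.02 and -0.02), prpf4ba (0.02 and -0.02) and prpf18 (-0.24 and -0.11) passed at neither age.

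SR protein genes went both ways. Of the 17, 4 rose at each age, 3 fell at 5 dpf and 1 at 8 dpf, with medians of 0.08 and -0.03. The rises were 23.5 percent at each age, with 24.2 and 19.6 percent of all genes. The falls were 17.6 and 5.88 percent, with 22.8 and 13.2 percent of all genes. None of the 3 falls was left when PTU 5 dpf replicate 1 was left out. In each extract the median level of the 17 stayed between -0.0586 and 0.104, so no group stood apart. At 8 dpf the number that rose was 1 without control 8 dpf replicate 3.

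srsf7a was at 0.09, -0.04 and -0.05 in control and at 0.79, 0.38 and 0.56 in PTU extracts of 5 dpf. At 8 dpf the values were 0.17, 0.29 and 0.26 against 0.34, 0.19 and 0.25. The gap at 5 dpf was gone at 8 dpf, where the extracts mixed. The fold change was 0.59 ± 0.08 (adjusted p = 1.86e-05) and 0.03 ± 0.09, and the difference, -0.56, had an adjusted p of 0.00423. Without PTU 5 dpf replicate 1, the highest of its extracts, the difference was -0.41 (adjusted p = 0.0697). Its probes gave 0.82 and 0.38 at 5 dpf, and srsf7a lies next to hnrnpl in the annotation, whose own fold changes were 0.19 and -0.02.

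srsf6a rose at 5 dpf with extracts at 0.47, 0.31 and 0.62 against controls at 0.08, -0.06 and -0.03, a fold change of 0.46 ± 0.06 (adjusted p = 2e-05), and was at 0.09 at 8 dpf. Its difference of -0.37 had an adjusted p of 0.0112, lost without any of 4 extracts (up to 0.102, without PTU 5 dpf replicate 1). The paralog srsf6b was at -0.26, -0.40 and -0.16 against -0.12, -0.02 and 0.14, below its controls. That fold change, -0.26 ± 0.10 (adjusted p = 0.0389), was lost without any of 6 extracts (adjusted p up to 0.198, without PTU 5 dpf replicate 1), and srsf6b was at -0.10 at 8 dpf. The difference between the paralogs was not tested.

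srsf10b, whose human counterpart represses splicing when dephosphorylated, rose at both ages, 0.40 ± 0.05 (adjusted p = 2.94e-05) and 0.25 ± 0.06 (adjusted p = 0.00513), the second lost without control 8 dpf replicate 3 (0.18, adjusted p = 0.0891). Named after their values were seen, srsf1a had 0.49 (adjusted p = 0.000119) and 0.26 (adjusted p = 0.0347), the second lost without any of 8 extracts (adjusted p up to 0.17, without control 8 dpf replicate 1), whereas srsf1b was at -0.03 and -0.09. srsf9 was at 0.08 and 0.37 (adjusted p = 0.000556), and srsf3b at 0.15 and 0.29 (adjusted p = 0.0148, lost without any of 5 extracts, up to 0.122 without control 8 dpf replicate 3). srsf5b (-0.38, adjusted p = 0.0104) and srsf4 (-0.21, adjusted p = 0.00582) fell at 5 dpf, each call lost without PTU 5 dpf replicate 1 (adjusted p = 0.0848 and 0.0673) and that of srsf5b also without control replicate 3, that of srsf4 also without control replicate 1. tra2a and tra2b, which bind splicing enhancers, were at -0.24 and 0.01 at 5 dpf and did not pass.

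srsf11 had the opposite course. Its control extracts rose with age from -0.03, -0.00 and 0.03 at 5 dpf to 0.85, 0.71 and 0.91 at 8 dpf. Its PTU extracts were at 0.02, -0.16 and 0.00 at 5 dpf, level with the controls, and at 0.32, 0.32 and 0.46 at 8 dpf, below the controls of that age and above all extracts of 5 dpf. PTU against control was -0.05 ± 0.05 (adjusted p = 0.455) at 5 dpf, and at 8 dpf it was -0.46 ± 0.06 (adjusted p = 1.54e-05). These effects differed by -0.41 (adjusted p = 0.0017). With age it was higher by 0.81 in control eyes (adjusted p = 1.78e-05) and by 0.39 in PTU eyes (adjusted p = 0.00198). The PTU effect at 8 dpf, the difference and the rise in control eyes kept their calls without any one extract, and the rise in PTU eyes did not (adjusted p up to 0.152, without PTU 5 dpf replicate 1, lost also without control 5 dpf replicate 1). The gene had 1 probe. The proteins srrm1 (0.30 and -0.22) and srrm2 (0.04 and -0.20), large SR-related coactivators, did not pass. Without the array of large residual spread srrm1 passed in opposite directions, higher at 5 dpf (0.29, adjusted p = 0.00917) but lower at 8 dpf (-0.46, adjusted p = 0.00458), and these effects differed by -0.75 (adjusted p = 0.00131), and srrm2 passed at 8 dpf (-0.24, adjusted p = 0.048).

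The 19 hnRNP genes had the highest median at 5 dpf, 0.41: 12 rose, none fell and 7 missed the threshold. At 8 dpf 8 rose and none fell, with a median of 0.22. The rises were 63.2 and 42.1 percent, with 24.2 and 19.6 percent of all genes. Of all genes 22.8 and 13.2 percent fell. The lowest counts over left-out extracts were 9, without control 5 dpf replicate 1, and 6, on leaving out control 8 dpf replicate 1, or PTU 5 dpf replicate 1. The 12 rises ran from 0.19 (hnrnpl) to 0.93 (hnrnpabb), and the genes that did not pass were hnrnpk, hnrnpa3, hnrnph1, hnrnpul1, hnrnpd, hnrnpdl and hnrnpa1a (-0.12 to 0.03 at 5 dpf), which are named after their values were seen.

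hnrnpabb, a homolog of human HNRNPAB, was at 0.08, -0.17 and 0.09 in control and 0.88, 0.74 and 1.13 in PTU extracts of 5 dpf. At 8 dpf control extracts were at -0.59, -0.15 and -0.48 and PTU extracts at 0.16, 0.33 and 0.38. PTU and control extracts were apart at both ages. The fold change was 0.93 ± 0.09 (adjusted p = 1.1e-06) and 0.69 ± 0.10 (adjusted p = 9.92e-05), 1.9-fold and 1.61-fold. Its paralog hnrnpaba had 0.63 ± 0.07 (adjusted p = 4.66e-06), with PTU extracts at 0.65, 0.60 and 0.65 and controls from -0.07 to 0.10, and 0.29 ± 0.08 (adjusted p = 0.0113) at 8 dpf. The last value was 0.23 (adjusted p = 0.0691) without PTU 8 dpf replicate 1 and leaving out control 8 dpf replicate 1, or PTU 5 dpf replicate 1, also ended the call.

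hnrnpub, for a nuclear matrix protein that binds nascent RNA, had the smallest p of the 89 genes at 5 dpf. Control extracts were at -0.10, -0.02 and 0.12 and PTU extracts at 0.57, 0.53 and 0.64. At 8 dpf they were at -0.31, -0.27 and -0.24 and at 0.29, 0.20 and 0.22. Replicates lay close together and far from the other group at both ages, with fold changes of 0.59 ± 0.05 (adjusted p = 5.44e-07) and 0.51 ± 0.06 (adjusted p = 1.17e-05). The 5 probes of the gene had one sign but ranged from 0.16 to 0.97 at 5 dpf.

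The hnrnpa0 genes encode proteins close to HNRNPA0, which in mammals binds AU-rich elements of inflammatory mRNAs. hnrnpa0a was at -0.12, 0.06 and 0.05 in control and 0.37, 0.24 and 0.53 in PTU extracts of 5 dpf. At 8 dpf its control extracts were at -1.08, -0.90 and -0.66 and its PTU extracts at 0.06, 0.21 and -0.01. The PTU extracts of 8 dpf were thus level with the controls of 5 dpf, and the controls of 8 dpf far below both. The fold change was 0.41 ± 0.10 (adjusted p = 0.00382) at 5 dpf, and at 8 dpf it was 0.95 ± 0.11 (adjusted p = 1.51e-05), 1.93-fold.

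The rise of hnrnpa0a at 5 dpf was 0.32 (adjusted p = 0.146) without control 5 dpf replicate 1. The difference between the ages, 0.53 (adjusted p = 0.0245), was lost without any of 8 extracts (up to 0.135, without PTU 5 dpf replicate 1). In control eyes hnrnpa0a was lower at 8 than at 5 dpf by 0.84 on the log2 scale (-0.84, adjusted p = 0.00153), lost without control or PTU 5 dpf replicate 1 (adjusted p up to 0.0784, without the former). hnrnpa0b had 0.85 and 0.87 and hnrnpa0l 0.62 and 0.85, with adjusted p from 1.76e-05 to 0.000185, and both also passed as lower with age in control eyes (-0.67 and -0.60), lost without any of 4 extracts each (adjusted p up to 0.379 on leaving out control 5 dpf replicate 1, and up to 0.205 on leaving out PTU 5 dpf replicate 1). The 3 genes are uncertain as separate measurements: hnrnpa0l overlaps hnrnpa0b in the annotation, and the 4 probes of hnrnpa0b gave 0.30 to 1.2 at 5 dpf and 0.15 to 1.8 at 8 dpf.

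hnrnpa1b, named with the following genes after its values were seen, had 0.55 (adjusted p = 5.81e-05) and 0.31 (adjusted p = 0.0164, lost without any of 4 extracts, up to 0.158 without PTU 8 dpf replicate 1). Its paralog hnrnpa1a, of the same widely studied repressor family, was at -0.06 and -0.17 and did not pass. hnrnpc, which binds uridine tracts, had 0.41 at both ages (adjusted p = 0.000474 and 0.00186). hnrnpr (0.42) and hnrnph1l (0.45) rose at 5 dpf, and at 8 dpf were at 0.27 and 0.22 (adjusted p = 0.0726 and 0.0951). hnrnpl (0.19) and hnrnpl2 (0.30) rose at 5 dpf, lost without any of 2 and 3 extracts (adjusted p up to 0.0532 on leaving out control 5 dpf replicate 1, and up to 0.0979 on leaving out PTU 5 dpf replicate 1).

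In the last role, ddx39aa, a helicase of mRNA export, was at 0.48, 0.35 and 0.38 in PTU extracts of 5 dpf with controls from -0.03 to 0.03, and at 0.28, 0.18 and 0.20 at 8 dpf with controls from -0.27 to -0.02. It stood above its controls at both ages, by 0.41 ± 0.06 (adjusted p = 4.13e-05) and 0.37 ± 0.07 (adjusted p = 0.000469). Its 2 probes were uneven, with 0.21 and 0.62 at 5 dpf and 0.06 and 0.69 at 8 dpf. The 2 probes of its paralog ddx39ab gave nearly the same values, 0.20 and 0.65, then 0.07 and 0.69. Whether the probes of these paralogs bind the same RNA was not tested, so the 2 genes are uncertain as separate measurements. As the mean of its probes, ddx39ab had 0.43 and 0.38. These calls were lost without control 5 dpf replicate 1 at 5 dpf (adjusted p = 0.0754) and without any of 6 extracts at 8 dpf (up to 0.165, without control 8 dpf replicate 3). magoh (0.09 and 0.18) and rbm8a (0.05 and 0.24), the core pair of the exon junction complex left on spliced RNA, passed at neither age, although rbm8a passed at 8 dpf without the array of large residual spread (0.46, adjusted p = 0.00188).

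Transcripts were also counted by probe at a fold threshold (adjusted p under 0.05 and an absolute log2 fold change over 0.75, that is 1.68-fold). By this rule 12 of the 182 splicing factor probes were called at 5 dpf, with 1491 of all 16913 probes (8.82 percent). At 8 dpf 12 of the 182 were called, with 1081 of all (6.39 percent). The share of splicing factor probes was thus below that of all probes at 5 dpf and close to it at 8 dpf. All 24 calls were higher with PTU, and the direction of the calls over all probes was not counted. The splicing factor calls at 5 dpf were probes of sf3b4, srsf7a, hnrnpa0b, hnrnpa1b, hnrnpaba, hnrnpabb and hnrnpub, and at 8 dpf of snrpf, snrpg, hnrnpa0a, hnrnpa0b, hnrnpa0l, hnrnpabb and hnrnpub. Of the 53 genes with more than 1 probe, 41 had all probes of one sign at 5 dpf and 43 at 8 dpf, and no gene had probes called in opposite directions. The other genes, among them sf3b4, sf3b2, snrpf, snrpd3, snrpb, lsm4, lsm12a, hnrnpa0l, prpf8 and srsf11, had a single probe, so agreement between probes cannot be judged for them. Probes of paralogs may bind each other's RNA, which was not tested.

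The PTU effect differed between the ages for 12 genes, 4 with a higher value at 8 dpf and 8 with a lower one. These were 4.49 and 8.99 percent of the 89, with 11.9 and 6.92 percent of all genes. Besides those described (prpf8, srsf7a, srsf11, srsf6a, sf3b2, hnrnpa0a and lsm12a) these were hnrnpaba (-0.34), prpf39 (-0.30), snrpa1 (-0.28), prpf38a (0.30) and srsf9 (0.30), named after their values were seen. None of the last 5 calls was firm, with 8 to 10 of the 12 left-out extracts ending the call and adjusted p up to 0.172, 0.188, 0.252, 0.187 and 0.261, for prpf39 and snrpa1 on leaving out control 5 dpf replicate 1 and for the others on leaving out PTU 5 dpf replicate 1. lsm12a (0.33, adjusted p = 0.00687) lost the call without control or PTU 5 dpf replicate 1 (up to 0.0673, without the latter). prpf8 and srsf11 kept it without any one extract. The whole count ran from 2, without PTU 5 dpf replicate 1, to 27, without PTU 8 dpf replicate 1, and was 24 without the array of large residual spread. In these settings 6.77, 28.8 and 30.3 percent of all genes differed, beside 18.8 percent with all arrays.

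**Figure D4:**
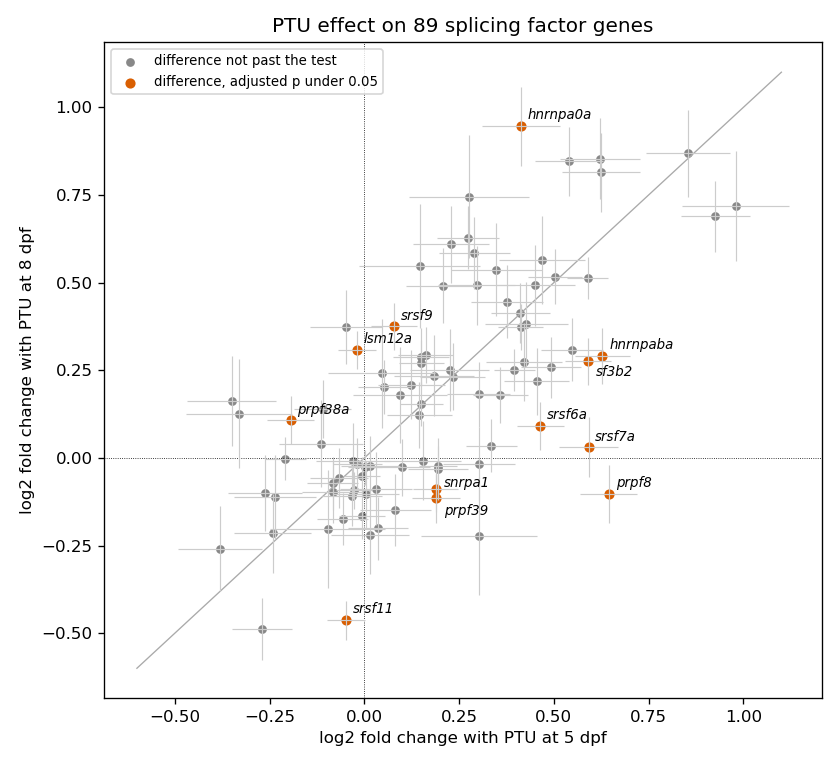
Log2 fold change with PTU at 8 dpf against that at 5 dpf for the 89 splicing factor genes, with standard errors; the grey line marks equal effects. The 12 named genes had effects that differed between the ages, and prpf8 (0.65 and -0.10) lies farthest from the line.

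With age alone, 3 of the 89 genes (3.37 percent) were higher and 8 (8.99 percent) lower at 8 dpf in control eyes. Of all genes 4.67 percent were higher and 7.05 percent lower there. The lower ones were the 3 hnrnpa0 genes, snrpd3, snrpf, snrpg, srsf3b and srsf9, and the higher ones srsf11, sf3b1 and snrpa1. In PTU eyes 2 were higher (2.25 percent, with 8.77 percent of all genes) and 12 lower (13.5 percent, with 6.69 percent of all genes). The higher ones were srsf11 and srsf4, and the lower ones hnrnpa0b, hnrnpa1b, hnrnpaba, hnrnpabb, hnrnpl, hnrnpub, prpf8, sf3b2, sf3b4, srsf1a, srsf6a and srsf7a. Neither count was firm. On leaving out control 5 dpf replicate 1, or PTU 5 dpf replicate 1, they came to 1 in control eyes and 0 in PTU eyes, on leaving out PTU 8 dpf replicate 1 to 22 and 16, and on leaving out PTU 8 dpf replicate 2 to 4 and 4. The shares of all genes moved likewise. In control eyes they were 11.7 percent with all extracts, and 1.44, 3.11, 18 and 6.9 percent in these 4 settings. In PTU eyes they were 15.5 percent, and 2.17, 1.41, 22.9 and 6.62 percent. The rise of srsf11 in control eyes was the single splicing factor call of these comparisons that held whichever extract was left out.

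Genes of the same pathway outside these names were counted from lists. Of 70 other core spliceosome and exon junction genes, 22 rose and 7 fell at 5 dpf (31.4 and 10 percent, with 24.2 and 22.8 percent of all genes). At 8 dpf 12 rose and 4 fell (17.1 and 5.71 percent, with 19.6 and 13.2 percent of all genes), so the share of rises was below that of all genes. The medians were 0.08 and 0.04. The rises numbered 14 on leaving out control 5 dpf replicate 1 and 6 on leaving out control 8 dpf replicate 3. The falls ranged from 4 to 11 and from 2 to 6. ddx5, an RNA helicase, rose at both ages (1.05, adjusted p = 2.07e-08, and 0.47), and eftud2, the GTPase partner of prpf8 in U5, at 0.81 and 0.28, the second not past the test (adjusted p = 0.0523). rnps1, of the exon junction complex, had 0.51 and 0.20, the latter lost without any of 9 extracts (adjusted p up to 0.224, without control 8 dpf replicate 3). phf5a, of SF3B, and txnl4a, of U5, had 0.61 and 0.58 at 8 dpf, and 0.37 and 0.22 at 5 dpf, where the first was lost without any of 4 extracts (up to 0.175, without control 5 dpf replicate 1) and the second did not pass (adjusted p = 0.0993).

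Genes for the making and the control of these proteins went both ways. Among 17 snRNP assembly genes and SR protein kinases, 7 rose and 5 fell at 5 dpf (41.2 and 29.4 percent, with 24.2 and 22.8 percent of all genes). At 8 dpf 4 rose and 3 fell (23.5 and 17.6 percent, with 19.6 and 13.2 percent of all genes). prmt5, wdr77 and clns1a, which form the methylosome that prepares Sm proteins for the ring, rose at both ages (0.70 and 0.65, 0.56 and 0.41, and 0.30 and 0.40). All 6 of these calls held without any one extract. gemin2, which binds SMN in the assembly of the ring and was named after its values were seen, fell at 5 dpf (-0.27, adjusted p = 0.0199, lost without any of 5 extracts, up to 0.13 without control 5 dpf replicate 3). smn1 and gemin5, also named after their values were seen, rose at 5 dpf. The call of smn1 held without any one extract (adjusted p at most 0.0479, without PTU 5 dpf replicate 1). That of gemin5 was lost without any of 6 extracts (up to 0.169, without control 5 dpf replicate 2). The kinases srpk1a and clk2a, which phosphorylate SR proteins, fell at both (-0.24 and -0.31, and -0.38 and -0.30). For srpk1a the fall at 5 dpf was lost without any of 3 extracts (adjusted p up to 0.0791, without control 5 dpf replicate 3) and for clk2a that at 8 dpf without control 8 dpf replicate 1 (-0.24, adjusted p = 0.0553). clk4a, another of these kinases, was named after its values were seen. It fell at both ages, with the lowest fold changes of the list (-0.99 and -1.07). Its first call was lost without any of 3 extracts (adjusted p up to 0.0846, without control 5 dpf replicate 1). Without PTU 5 dpf replicate 1 the list's counts at 5 dpf were 4 and 1.

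Of 55 other regulators of alternative splicing, 19 rose and 6 fell at 5 dpf (34.5 and 10.9 percent, with 24.2 and 22.8 percent of all genes). At 8 dpf 13 rose and 2 fell (23.6 and 3.64 percent, with 19.6 and 13.2 percent of all genes). The medians were 0.12 and 0.01. The rises numbered 13 and 10 at their lowest, both on leaving out control 5 dpf replicate 1, and the falls ranged from 2 to 6 and from 1 to 4. syncripl (0.92 and 0.44), cirbpa, a cold-inducible RNA-binding protein (0.73 and 0.73), and ptbp1a, a repressor of neuronal exons (0.55 and 0.60), rose at both ages. rbpms2b, whose relatives mark retinal ganglion cells, fell at 5 dpf (-1.12, adjusted p = 5.38e-07) and was at -0.15 at 8 dpf. msi2b, a Musashi protein, fell at both ages (-0.27 and -0.69), and the first call was lost without PTU 5 dpf replicate 1 (-0.21, adjusted p = 0.14) or control 5 dpf replicate 3.

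Cell type lists moved with PTU beside the splicing factors. Of 31 replication and proliferation genes, 23 rose at 5 dpf, 29 at 8 dpf and none fell (mcm5 0.59 and 1.1, mcm6 0.68 and 0.75). The rises were 74.2 and 93.5 percent, with 24.2 and 19.6 percent of all genes. Of all genes 22.8 and 13.2 percent fell. Without PTU 5 dpf replicate 1, 16 of the 31 genes rose at 5 dpf. Their median level per extract was between -0.117 and 0.0895 in control and 0.229 and 0.407 in PTU eyes at 5 dpf, and between -0.548 and -0.359 and between -0.0259 and 0.201 at 8 dpf. The control extracts of 8 dpf were lowest here as in the Sm genes, but the PTU extracts of 8 dpf lay below those of 5 dpf, whereas in the Sm genes these overlapped. From 5 to 8 dpf in PTU eyes 13 of the 31 replication genes fell (median -0.27) and none of the 8 Sm genes did. Leaving out extracts was not counted for these 13, and the difference between the 2 lists was not tested. The 13 were 41.9 percent, with 6.69 percent of all genes lower in this comparison. Counting both directions, 15.5 percent of all genes differed. This share was 1.41 percent without PTU 5 dpf replicate 1 and 2.17 percent without control 5 dpf replicate 1. With age in control eyes 20 of the 31 replication genes were lower, or 3 on leaving out control 5 dpf replicate 1. The 20 were 64.5 percent, with 7.05 percent of all genes.

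Photoreceptor genes, which mark the labelled tissue, were measured for 34 of the list: 26 fell and 3 rose at 5 dpf, and 11 fell and 13 rose at 8 dpf (1 and 7 rises on leaving out PTU 5 dpf replicate 1 and control 8 dpf replicate 3). The falls were 76.5 and 32.4 percent, with 22.8 and 13.2 percent of all genes. The rises were 8.82 and 38.2 percent, with 24.2 and 19.6 percent of all genes. The median level of the photoreceptor genes was between -0.276 and 0.185 in control and between -1.15 and -0.827 in PTU eyes at 5 dpf, and between -0.868 and -0.656 and between -1.15 and -0.46 at 8 dpf. The groups were apart at 5 dpf and overlapped at 8 dpf. Of 17 leukocyte genes 15 and 16 rose (coro1a 1.37 and 2.03), with medians of at most 0.167 in any control extract and of at least 1.28 in any PTU extract. These rises were 88.2 and 94.1 percent, with 24.2 and 19.6 percent of all genes. Of 23 muscle genes 6 rose at 5 dpf (3 to 13 over the left-out extracts) and none at 8 dpf. The 6 were 26.1 percent, with 24.2 percent of all genes. The median level of the muscle genes in the control extracts of 5 dpf ran from -0.704 to 0.671, a range that held the PTU extracts of that age (0.0641 to 0.412). The part of these cell types in the changes of the splicing factors was not tested.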

How the data were processed

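Per the methods, scanned arrays were quantified in GenePix Pro. The authors then dropped every spot that on no array exceeded its local background by over 2 SD, and used limma 3.34.4 for normexp background correction and for loess normalization of each array. What was deposited is 1 log2 ratio, Cy5 over Cy3, for each probe and array; the table states neither scale nor direction, which were taken from the methods, with dyes as labelled, and array medians were -0.0116 to -0.00113. The authors had pooled no replicates. With ratios alone, signal over background is not given, and the number of arrays limits precision. Slides are not given in the sources used here. After 1 control was left out, 13708 of 16913 probes were assigned to 8445 genes with the platform annotation and the names of the GRCz12tu annotation, and of the 182 splicing factor probes 150 matched by accession, 25 by symbol and 7 by older symbol. Since the files name no genome build, no coordinates are given.

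Probes of a gene were averaged. limma 3.58.1 in R 4.3.3 fitted group coefficients over all 14 arrays, with the extract as a random effect by generalized least squares (variance ratio 0.138 of extract to array, the same for all genes) and p-values adjusted after Benjamini and Hochberg over all genes. Standard errors come from this model. Probes were fitted with arrays as independent. A level for each extract was solved by least squares from the 14 ratios. The script was tested on simulated data. Alternatives were centring, scaling, a dye effect, arrays within an age only, a replicate block, robust moderation, independent arrays, the most variable probe, and leaving out each extract. Members and gene lists were chosen with earlier results of these data known. Genes named with values were the 12 with the smallest p at each age, the 6 for the difference and 4 for control eyes by age, their paralogs, retinitis pigmentosa genes, the 3 smallest effects at 5 dpf, and the 3 smallest p per age in each list of splicing genes. From the cell type lists only mcm5, mcm6 and coro1a were named, not all the genes that this rule would pick. All other genes were named after their values were seen. Figures were drawn with matplotlib 3.10.9.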

Additional observations from a re-analysis of the deposited data

Results flagged for a closer look

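For 12 of the 89 splicing factor genes the effect of PTU differed between the ages by the interaction term of the limma fit (adjusted p under 0.05). It was higher at 8 dpf for 4.49 percent of the 89 and lower for 8.99 percent. Over all genes 18.8 percent differed (11.9 percent higher and 6.92 percent lower), a larger share than among the splicing factors. Values are 8 dpf minus 5 dpf on the log2 scale. The effect was lower at 8 dpf for prpf8 (-0.747), srsf7a (-0.561), srsf11 (-0.415), srsf6a (-0.373), hnrnpaba (-0.337), sf3b2 (-0.315), prpf39 (-0.304) and snrpa1 (-0.276). It was higher at 8 dpf for hnrnpa0a (0.533), lsm12a (0.327), prpf38a (0.301) and srsf9 (0.297). Of these, prpf8 and srsf11 kept the call without any one extract, and the other 10 lost it without at least 1. With 3 extracts in each group, no single extract could be tested as lying apart from its group.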

How the results depend on the processing

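No result past its threshold changed direction under the alternatives run, but values near 0 did: without the array of large residual spread the fold changes at 8 dpf of prpf31, lsm12b and prpf18 were 0.04, 0.01 and 0.01, all negative with it. Leaving out 1 extract in turn gave 27 to 47 genes higher and 0 to 9 lower at 5 dpf, 22 to 38 higher and 2 to 6 lower at 8 dpf, 2 to 27 whose effect differed, 1 to 22 by age in control eyes and 0 to 16 in PTU eyes. The shares of all genes moved too: 15.5 to 27.9 percent higher and 14.9 to 26.8 percent lower at 5 dpf, and 13 to 21.4 and 8.57 to 15.2 percent at 8 dpf. Those whose effect differed were 6.77 to 28.8 percent, and by age 1.44 to 18 percent in control and 1.41 to 22.9 percent in PTU eyes. The medians of the splicing factors ran from 0.127 to 0.193 at 5 dpf and from 0.12 to 0.212 at 8 dpf, and their called probes from 10 to 15 and from 8 to 15. The count that differed between ages was 19 with arrays as independent (with 25 percent of all genes) and 6 from arrays within an age (with 11.8 percent of all genes), which give no comparison by age. The count by age in control eyes was 20 with arrays scaled to one spread (with 17.8 percent of all genes). The most variable probe per gene gave medians of 0.229 and 0.239. With no fold threshold 94 and 73 probes were called, and 4 and 3 with an absolute log2 fold change over 1. Without the array of large residual spread, an alternative chosen after seeing the data, 39 genes were higher and 7 lower at 8 dpf, 24 differed between ages and 21 by age in control eyes. The cause of these shifts was not tested, beyond the fewer arrays of some alternatives.

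Whether replicate numbers pair the extracts was not settled. Deviations of same-numbered control and PTU extracts correlated at -0.187, 0.135 and -0.0919 at 5 dpf and at 0.627, 0.172 and -0.221 at 8 dpf. Some same-numbered extracts met on an array and others did not, so these values cannot decide it. With the number as a replicate block 36 genes were higher at 5 dpf and 34 at 8 dpf, and 6 differed by age in control eyes. Of the values for single genes under the alternatives, 8578 kept their side of the threshold, 351 lost it and 238 gained it.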
